A study of Mus musculus with 8 samples.

Results

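The subject here is 24202 regions of the mouse genome that carried a 5hmC peak in induced pluripotent stem cells (iPSC) and in none of 7 other libraries. 5hmC is 5-hydroxymethylcytosine. Peaks of all 8 lists were merged into regions where they overlapped or touched, and a region was present in a library if it shared at least 1 bp with one of its peaks. This gave 222732 regions, of which 52626 held an iPSC peak. The iPSC-only regions made up 10.9% of all regions and 46.0% of those with an iPSC peak, and both values follow from the choice of the members. Each consisted of 1 iPSC peak. Together they covered 16.2 Mb, which is 39.5% of the 41.1 Mb covered by the iPSC list.

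The starting cells were mouse embryonic fibroblasts (MEF), named OG2-MEFs in the labels' protocols. Intermediates were taken at D1, D3 and D5, read as days, of reprogramming by OSNK or by OySyNyK. OSNK stands for Oct4, Sox2, Nanog and Klf4, and in OySyNyK the factors marked y carry an added activation domain taken from YAP; these expansions are background on the study and not taken from the labels. The iPSC sample carries the OySyNyK factors in its title, so no iPSC library of the OSNK method was compared. Vitamin C and leukemia inhibitory factor were added to the medium for iPSC generation, per the labels' protocols, and iPSC were kept on feeder cells that are themselves mitomycin-treated MEF. The share of feeder DNA in the iPSC library was not measured here. Every group had 1 library, no replicate and an unknown depth, so all values below are descriptions without a test.

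TET enzymes make 5hmC by oxidising 5-methylcytosine, and it can be an intermediate on the way to unmethylated DNA as well as a lasting mark. It is known from gene bodies and enhancers of active genes, and pluripotent cells express TET1 and TET2 while fibroblasts must rebuild their pattern to become pluripotent. The method used here tags 5hmC with a modified sugar and pulls the DNA down, so a peak marks a stretch of DNA enriched for 5hmC and not a single base. Positions count from 1 in the mouse assembly of the deposited lists, and no region was assigned to a gene.

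The iPSC library stood apart in how much of its list was found nowhere else. The share of regions private to 1 library was 13.2% in MEF (8234 regions). In OSNK it was 14.7% at D1, 7.59% at D3 and 12.5% at D5. In OySyNyK it was 7.04%, 9.96% and 10.8% on these days. The iPSC share of 46.0% (exact 95% interval 45.6 to 46.4, which covers counting error only) was thus above those of the 7 other lists, although iPSC had the shortest list. The intermediates of a method lie days apart, while MEF and iPSC are the end points of the design, so the shares are not like for like. With the 54938 best-scoring peaks of each library, the iPSC share was 54.8% and the MEF share 25.5%, and the intermediates lay between 5.51% and 15.1%. The iPSC list has 54938 peaks and lost none in this setting, so the number of iPSC-only regions could only rise. The higher iPSC share is therefore no further evidence.

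**Figure D1:**
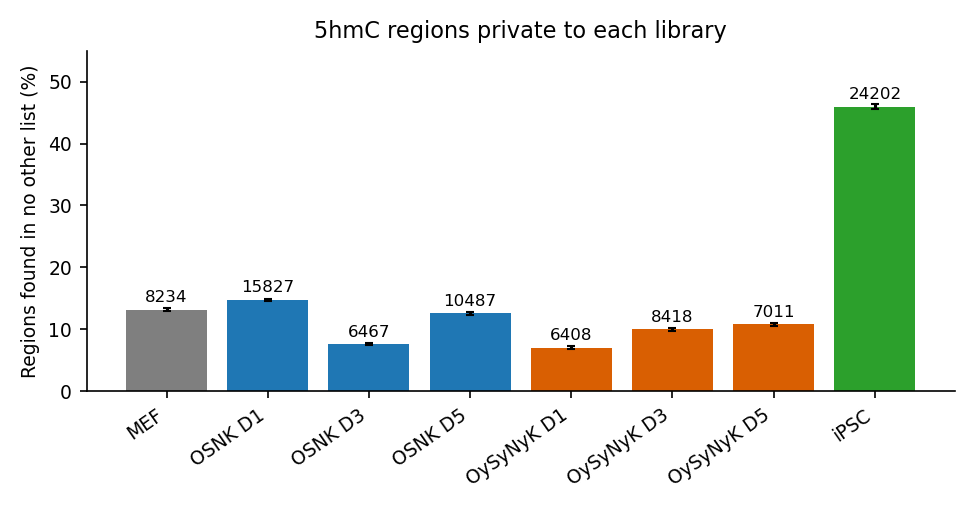
Share of the regions of each library that are found in no other list (bars, in percent; error bars are exact 95% binomial intervals; the number of such regions stands above each bar; 1 library per bar). The iPSC bar stands at 46.0%, and the 7 others lie between 7.04% and 14.7%.

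Many other iPSC regions missed this class by 1 list. Of the 28424 iPSC regions present elsewhere, 6370 were present in exactly 1 other list and 5750 in all 7. The single other list was OySyNyK D5 for 3023 regions, OySyNyK D3 for 991, MEF for 911 and OSNK D5 for 745. It was OSNK D3 for 263, OySyNyK D1 for 251 and OSNK D1 for 186. OySyNyK D5 was therefore the list that held back the most regions, and it had fewer peaks (70592) than the 5 other intermediates. Without that list, the iPSC-only regions numbered 27467, or 52.0% of the iPSC regions.

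The limit of 1 bp divides similar peaks. Just inside it, 763 iPSC-only regions lay within 100 bp of a peak of another list, with a median score of 66.0 and a median width of 608 bp. Just outside it, 563 iPSC peaks overlapped other lists by 1 to 100 bp, with a median score of 66.5 and a median width of 620 bp.

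The iPSC-only regions were on the whole the weaker peaks of the iPSC list, but not only weak peaks. The score is the authors' value for each peak and rises with the peak caller's confidence; the lowest in every list is 50. Scores of iPSC-only regions ran from 50 to 588, with a median of 66.3 and quartiles of 56.7 and 85.7. Regions also present elsewhere had a median of 77.3, quartiles of 60.5 and 110.6 and a maximum of 3100. A score of at least 100 was reached by 3835 iPSC-only regions, which is 15.8% (exact 95% interval 15.4 to 16.3), against 23.9% of all iPSC regions and 30.7% of those present elsewhere. A score of at least 200 was reached by 321 iPSC-only regions, one of at least 300 by 68 and one of at least 400 by 15.

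Seen from the score, the iPSC-only share was lower the stronger the peaks were. When the 52626 iPSC regions were put into 10 classes of equal size by score, 56.1% of the lowest class (scores up to 52.97) were iPSC-only. The share was 50.2% in the fifth class and 34.3% in the ninth. In the highest class, with scores from 141.9 up, it was 23.0% (exact 95% interval 21.8 to 24.1), or 1208 regions. Of the 661 iPSC regions with a score of at least 300, 10.3% were iPSC-only (8.08 to 12.9). The score is a value of the same list that chose the members. Weak peaks are also the ones a caller misses most easily in another library, and the part of this in the share was not tested.

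By the number of other lists holding an iPSC region, the median score rose most between none and 1, and next between 6 and 7. The score of a region is the highest of its iPSC peaks. Regions in exactly 1 other list held 1.01 iPSC peaks on average and those in all 7 held 1.22. The median score was 66.3 for regions in no other list and 74.4 for regions in exactly 1. It lay between 74.8 and 78.5 for those in 2 to 6 and was 83.2 for those in all 7. The share with a score of at least 100 was 15.8% in no other list, 27.2% in 1 and 37.0% in all 7.

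Peaks of iPSC-only regions were narrower, and this went with their score. Their width ran from 169 to 3955 bp, with a median of 599 bp and quartiles of 475 and 774 bp. Peaks in iPSC regions present elsewhere, averaged within a region, had a median of 677 bp and reached 7115 bp. A width of 1000 bp or more was found in 10.9% of the iPSC-only regions (2640) and in 20.8% of the others. Within the score classes the gap in width was small. In the lowest class the medians were 490 bp for iPSC-only and 499 bp for the others, and in the fifth 585 and 593.5 bp. In the highest class they were 1108 and 1239 bp.

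**Figure D2:**
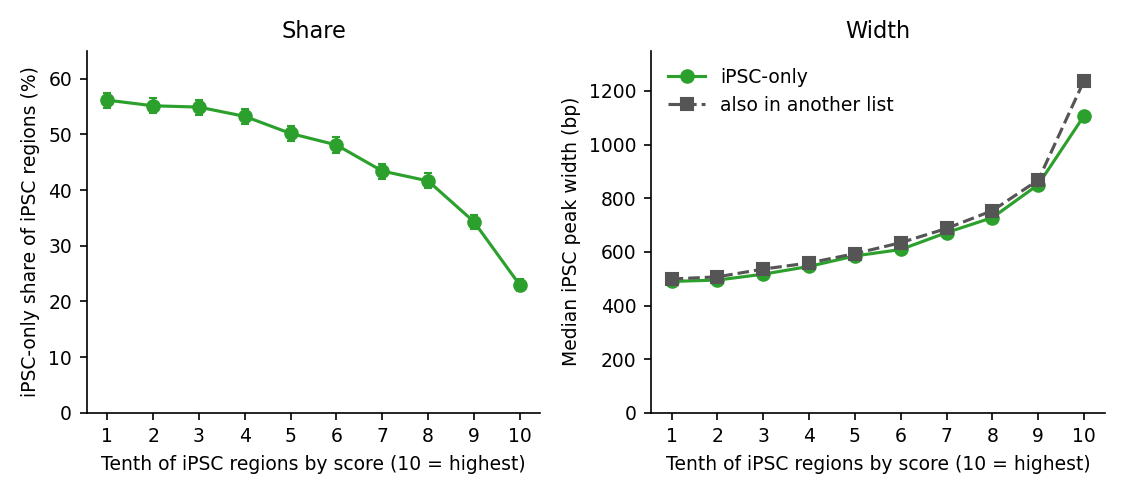
Left, iPSC-only share of the iPSC regions (percent, with exact 95% binomial intervals) in 10 classes of equal size by score; right, median peak width (bp) of iPSC-only regions (circles) and of iPSC regions also in another list (squares) in the same classes. The share falls from 56.1% to 23.0%, and the width curves lie close together except in the highest class (1108 against 1239 bp).

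The strongest iPSC-only regions were broad peaks, and the first 5 lay within a few kb of peaks of other lists. The highest score, 588, belonged to chromosome 10, positions 79797038 to 79799616, a peak of 2579 bp. Peaks of the other lists came up to its edge without overlapping it, at a gap of 18 bp in OySyNyK D5, 49 bp in OySyNyK D3, 83 bp in OSNK D3 and 111 bp in OSNK D5. The nearest MEF peak was 4081 bp away. This region is therefore iPSC-only by a margin of 18 bp.

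The second, on chromosome 17 at positions 36019089 to 36020481, had a score of 548 and gaps between 2813 and 2912 bp to all 6 intermediates and of 6872 bp to MEF. The third, on chromosome 15 at positions 97636781 to 97640286, had a score of 506 and a width of 3506 bp. All 7 other lists had a peak between 1833 and 1916 bp from it. That region thus sat close beside 5hmC that was called in every other library.

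Similar settings were seen on chromosome 4 at positions 132052587 to 132055895, with a score of 483 and gaps between 1426 and 3056 bp, and on chromosome 17 at positions 56573009 to 56575755, with a score of 472 and gaps between 3148 and 8191 bp. The ninth, on chromosome 19 at positions 6922146 to 6925331, had a score of 424 and was 2998 bp from OSNK D3 and 4164 bp from OySyNyK D5.

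The 4 remaining regions of the first 10 stood further out. On chromosome 14, positions 106505058 to 106506853 (score 462) were 16767 bp from the nearest peak of another list and 178413 bp from the nearest other iPSC region. This was the one with no other iPSC region within 50 kb. On chromosome 2, positions 181431300 to 181432620 (score 451) were 15196 bp from MEF, 98694 bp from OSNK D5 and 55772 bp from OySyNyK D5. On chromosome 8, positions 91553440 to 91557394 formed the widest iPSC-only peak, of 3955 bp, with a score of 430 and gaps between 13325 and 13992 bp to the 7 lists. On chromosome 11, positions 60309374 to 60311548 (score 420) were 14565 bp from OySyNyK D5 and 14695 bp from OySyNyK D3. They were 24653 bp from OSNK D5 and 47328 bp from MEF.

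Most iPSC-only regions had 5hmC of D5 cells in their neighbourhood. The median gap to the nearest OSNK D5 peak was 7757 bp and to the nearest OySyNyK D5 peak 7620.5 bp. A peak of OSNK D5 lay within 1 kb of 10.2% of the regions (exact 95% interval 9.83 to 10.6), within 10 kb of 56.7% and within 50 kb of 89.6%. A peak of OySyNyK D5 lay within 1 kb of 11.6% (11.2 to 12.1), within 10 kb of 57.2% and within 50 kb of 89.7%. To the nearer of both lists the median gap was 4773.5 bp. As a background, the sequence spanned by peaks was scanned for every stretch of 599 bp, the median width of the iPSC-only regions, that overlapped no peak of the 7 other lists. Of these stretches 4.01% lay within 1 kb of an OSNK D5 peak, 26.3% within 10 kb and 52.3% within 50 kb. For OySyNyK D5 the shares were 3.14%, 21.4% and 44.4%. The iPSC-only regions were thus above the background at each distance, by 2.55 times for OSNK D5 and 3.71 times for OySyNyK D5 within 1 kb, and by 1.71 and 2.02 times within 50 kb. The background includes sequence to which reads cannot be mapped, and peaks of all lists gather in the same parts of the genome. Private regions of other lists were near D5 peaks too. Within 1 kb of OSNK D5 lay 10.3% of MEF-only, 12.5% of OSNK D1-only and 20.2% of OSNK D3-only regions. For regions private to OySyNyK D1, D3 and D5 it was 14.5%, 15.6% and 16.9%, so iPSC-only regions were not nearer. Within 1 kb of OySyNyK D5 the share was 8.63% for MEF and 7.05%, 10.6% and 12.6% for OSNK D1, D3 and D5. It was 12.4% and 14.9% for OySyNyK D1 and D3, so iPSC-only regions, at 11.6%, lay among these. Farther than 10 kb from both D5 lists lay 30.8% of the iPSC-only regions (7458), and farther than 50 kb 5.82% (1408).

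OySyNyK D5 was as near as OSNK D5 with fewer peaks, 70592 against 92762. The nearer peak came from OySyNyK D5 for 12463 regions and from OSNK D5 for 11692, and 47 regions were at the same gap. Within 1 kb of both lists were 1295 regions, of OySyNyK D5 alone 1522 and of OSNK D5 alone 1176. The difference within 1 kb was 1.43 percentage points, and OySyNyK held 56.4% of the regions within 1 kb of 1 list alone. With 54938 peaks in either D5 list, the median gaps of the same regions were 14078 bp to OSNK D5 and 10220 bp to OySyNyK D5. The shares within 1 kb were then 6.09% and 9.27%, and the nearer peak came from OySyNyK for 59.3% of the regions. With 1 library per method, a difference between the methods and one between these libraries cannot be told apart.

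**Figure D3:**
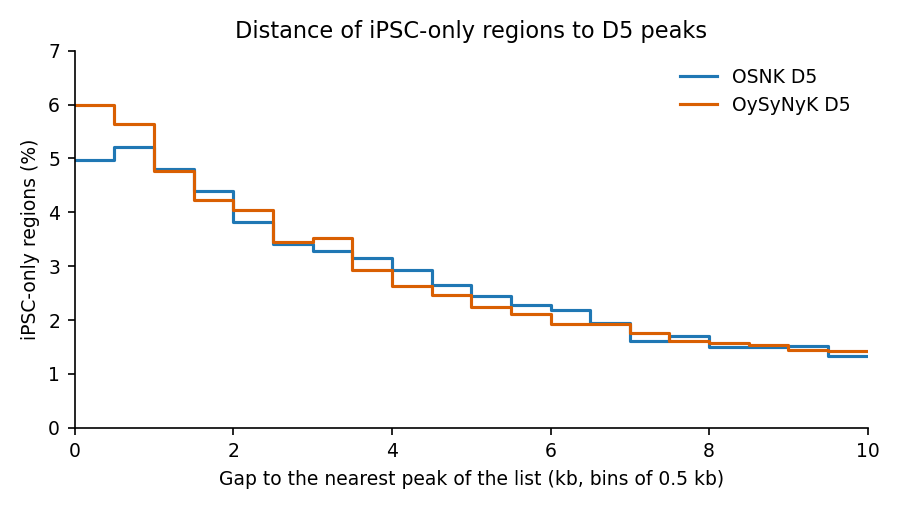
Share of the iPSC-only regions (percent) by their gap to the nearest OSNK D5 or OySyNyK D5 peak, in bins of 0.5 kb up to 10 kb. Both curves fall with distance, and OySyNyK D5 is higher in the bins below 1 kb, where it holds 11.6% of the regions against 10.2%.

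The strongest iPSC-only regions leaned further to OySyNyK. Among the 6051 regions with the highest scores (from 85.7 up), the nearer D5 peak was from OySyNyK for 55.5%, and the median gaps were 6760 bp to OySyNyK D5 and 7490 bp to OSNK D5. Among the 6051 with the lowest scores, OySyNyK was nearer for 49.2%, with median gaps of 8449 and 7911 bp.

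The other lists gave a frame for these gaps. The median gap of iPSC-only regions was 11181 bp to MEF, 6662 bp to OSNK D1 and 7975.5 bp to OSNK D3. It was 6745 bp to OySyNyK D1 and 6217 bp to OySyNyK D3. MEF was thus the farthest, and with 65776 peaks it was the shortest of the 7 lists. The share within 1 kb was 7.21% for MEF and highest for OySyNyK D3, at 12.9%. Of the regions private to MEF, 10.3% lay within 1 kb of an OSNK D5 peak and 8.63% within 1 kb of an OySyNyK D5 peak, with median gaps of 10435.5 and 14214 bp. With 54938 peaks in either D5 list, an alternative added after seeing the data, this order turned, at 5.87% and 6.51% and median gaps of 20355 and 19723 bp.

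Counted against all 7 lists, the median gap to the nearest peak was 2561.5 bp, and 27.1% of the iPSC-only regions (6568) had one within 1 kb. For the private regions of the 6 intermediates these shares were between 30.6% and 39.95%, and for MEF 32.0%. The score changed little with the gap. The median was 66.9 for iPSC-only regions at most 1 kb from another list, 66.4 for those 1 to 10 kb away and 65.1 for those over 10 kb away.

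iPSC-only regions came in groups more often than private regions of other libraries. Another iPSC-only region lay within 10 kb of 46.9% of them (exact 95% interval 46.3 to 47.5). This held for 14.3% of the MEF-only regions and 22.5% of those private to OSNK D1, the second most numerous private class. The median gap to the next region of the same set was 11351.5 bp, 66708 bp and 32978 bp. The sets differ in size (24202, 8234 and 15827 regions), which by itself shortens gaps in the largest. The variance of the number of regions per 100 kb window, divided by its mean, was 2.77 for iPSC-only, 1.17 for MEF-only and 1.30 for OSNK D1-only regions, where an even random scatter gives 1. iPSC regions also present elsewhere were more grouped than the iPSC-only ones, with 59.8% within 10 kb of each other and a ratio of 3.90.

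Regions at most 10 kb apart were joined into chains. There were 4299 chains of at least 2 iPSC-only regions, 287 of at least 5 and 12 of at least 10. The iPSC regions also present elsewhere, a set of 28424, formed 5488, 781 and 101 such chains. The longest 3 chains of iPSC-only regions were all on chromosome 12. The first held 17 regions between positions 107145809 and 107207249, a stretch of 61.4 kb in which MEF and the D1 lists of both methods had no peak. OSNK D3 had none there either, OSNK D5 had 2, and OySyNyK had 1 at D3 and 1 at D5. The second held 15 regions between 87745691 and 87809691, where the OySyNyK lists held 1, 2 and 7 peaks over the days, and those of OSNK 1, 0 and 0. The third held 15 regions between 77700368 and 77749427, where OySyNyK counted 4, 5 and 5 peaks, OSNK 3, 1 and 4, and MEF 2.

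Both kinds of iPSC region lay near iPSC-only regions, but each kind was more often near its own. A region also present elsewhere lay within 10 kb of 43.5% of the iPSC-only regions, at a median gap of 13255 bp. For another iPSC-only region this share was 46.9%. Of the iPSC regions also present elsewhere, 40.5% had an iPSC-only region within 10 kb, against 59.8% with one of their own kind. Of the iPSC-only regions, 66.5% had another iPSC region of either kind within 10 kb, against 70.6% of all iPSC regions. Across 19696 windows of 100 kb with a peak in any list, the number of iPSC-only regions went with the number of other iPSC regions (Pearson's r 0.47, Spearman's rho 0.54, windows being no independent replicates and both counts coming from 1 library).

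Windows holding iPSC-only regions numbered 9759. Of these, 4099 held 1, 4386 held 2 to 4, 1183 held 5 to 9 and 91 held 10 or more. Only 331 of the 9759 windows, with 497 iPSC-only regions, had no peak of any other list. A further measure of the surroundings is the cover, the percent of a window that lies under peaks. In the 91 densest windows OySyNyK cover was 4.66% at D1, 6.76% at D3 and 6.54% at D5, above the MEF value of 3.52%. OSNK cover there was 3.89%, 4.91% and 4.20%. Over all windows OySyNyK cover was 3.91%, 3.77% and 2.92% on these days, OSNK cover 4.67%, 4.98% and 3.56%, and MEF cover 3.20%. Cover at D5 was thus higher in the densest windows than over all windows with both methods, and OSNK D1 and D3 were lower there. The 9937 windows without an iPSC-only region had D5 cover of 2.30% for OSNK and 1.48% for OySyNyK. In windows with 1, 2 to 4 and 5 to 9 such regions, OSNK D5 cover was 4.24%, 5.35% and 5.18%. MEF cover was 3.67%, 4.50% and 4.60% in them, and OySyNyK D5 cover 3.33%, 4.91% and 5.98%. Among windows holding iPSC-only regions, OSNK D5 and MEF cover was thus lowest in the densest, and OySyNyK D5 cover highest. For OSNK D5 and MEF the densest windows lay close to those with 1 such region. iPSC regions also present elsewhere rose over these classes too, from a mean of 1.48 in windows with 1 iPSC-only region to 5.54 in the densest. How much of the OySyNyK D5 cover lies on those shared regions was not tested.

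At D5, OySyNyK cover exceeded OSNK cover in 72 of the 91 densest windows and lay below it in 18. Over all 19696 windows it was higher in 5139 and lower in 10401, and the OSNK D5 list covers more sequence. On chromosome 12, which has 29 of the 91 windows, OySyNyK was higher in 21 and lower in 7, and on the other chromosomes in 51 and 11 of 62. The windows were chosen by their iPSC-only regions, which no other list overlaps, so this cover comes from peaks beside those regions.

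**Figure D4:**
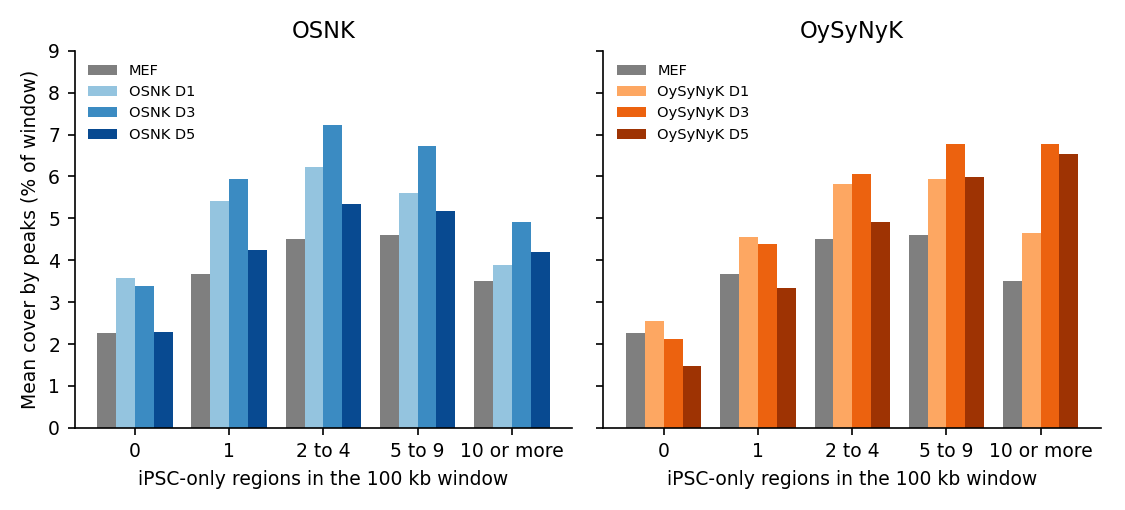
Mean cover by peaks (percent of the window) of MEF and of the intermediates of OSNK (left) and OySyNyK (right) in windows of 100 kb, grouped by the number of iPSC-only regions they hold (9937, 4099, 4386, 1183 and 91 windows; 1 library per bar). In windows with 10 or more, OySyNyK D3 and D5 stand at 6.76% and 6.54%, above MEF at 3.52% and OSNK D5 at 4.20%.

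The window with the most iPSC-only regions, 23, was on chromosome 12 at positions 77700001 to 77800000, where 74.2% of the iPSC regions were iPSC-only. Its cover was 3.13% in MEF and 26.8% in iPSC. OSNK covered 3.52%, 4.69% and 4.50% of it at D1, D3 and D5, and OySyNyK 5.28%, 7.77% and 7.35%. All intermediates were thus above MEF, and far below iPSC. This window and those below were chosen by their number of iPSC-only regions, so their high iPSC cover follows from the choice.

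On chromosome 4, positions 125300001 to 125400000 held 19 iPSC-only regions and only 2 other iPSC regions. The cover was 3.22% in MEF and 20.0% in iPSC, and OSNK had no peak at D1 and D3 and 1 at D5. OySyNyK covered 1.03%, 1.25% and 1.66% over the days. All 6 intermediates were thus below MEF in this window.

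On chromosome 12, positions 107100001 to 107200000 also held 19 iPSC-only regions, with 2.95% cover in MEF and 19.9% in iPSC. The neighbouring windows starting at 107400001, 107500001 and 107600001 held 14, 16 and 14, and together 1 other iPSC region. MEF covered 0.71%, 0.901% and 1.12% of them. At D5, OSNK had no peak in the 3 windows, and OySyNyK covered 2.17%, 0% and 0.611%. In iPSC the cover was 10.7%, 11.8% and 8.41%. Of the iPSC regions in these 3 windows, all but 1 overlapped no peak of any other list, and the windows were chosen for such regions.

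The window at 87700001 to 87800000 on chromosome 12 held 18 iPSC-only regions, and their median score of 104 was the highest of the 10 windows. OySyNyK covered 4.61%, 6.60% and 6.86% of it over the days and OSNK 3.99%, 0% and 0.481%, with 4.72% in MEF and 19.1% in iPSC. Further windows on chromosome 12, starting at 77900001 and 106000001, held 15 and 14 regions among 26 and 25 iPSC regions. The one window on chromosome 5, at 125200001 to 125300000, held 13. There OySyNyK covered 0.966% at D1, 7.12% at D3 and 6.82% at D5, and OSNK 1.18%, 2.10% and 2.03%, with 1.33% in MEF and 13.7% in iPSC.

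By chromosome, the iPSC-only regions followed the other iPSC regions. Their density was 11.2 per Mb on the median autosome, of 19. It was highest on chromosome 12, at 18.7 per Mb, followed by chromosome 11 at 15.7 and chromosome 19 at 14.3. It was lowest on chromosome 16, at 2.37, and chromosome 13, at 3.21, and chromosome X had 0.367 per Mb. Over the 20 chromosomes the densities of iPSC-only and other iPSC regions had a Pearson's r of 0.96, as a description; both come from 1 library. The MEF list was not low on chromosomes 13 and 16, with 29.2 and 26.2 peaks per Mb, nor was OSNK D5, with 39.7 and 36.8, or OySyNyK D5, with 27.8 and 25.9. On chromosome X these lists were low too, with 3.18 peaks per Mb in MEF, 2.24 in OSNK D5 and 1.41 in OySyNyK D5.

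Chromosome 12 stood out in both number and share. It held 2202 iPSC-only regions, which is 9.10% of them, against 7.12% of the other iPSC regions and 4.48% of the MEF peaks. Of its iPSC regions 52.1% were iPSC-only (exact 95% interval 50.6 to 53.6), the highest share of the autosomes. Chromosome 6 followed with 50.2% (47.6 to 52.9), and the median autosome had 45.5%. The lowest was chromosome 16 with 36.1% (32.3 to 40.0), or 225 regions, and chromosome 17 had 41.6% (39.8 to 43.5). On X the share was 55.7% (45.7 to 65.3), of only 106 regions. These intervals take regions as independent, although the iPSC-only regions were grouped, so they do not test a chromosome against the whole list. Scores moved with density: the median score of iPSC-only regions was 69.4 on chromosome 12, the highest of the autosomes, and 61.3 and 61.4 on chromosomes 13 and 16, the lowest. A score of at least 100 was reached by 20.5% of the iPSC-only regions on chromosome 12, 7.73% on chromosome 13 and 7.11% on chromosome 16. The copy number of chromosomes in this iPSC line was not measured here, and it can bear on the numbers, shares and scores of peaks of a whole chromosome; these values are therefore peak counts and not levels of 5hmC.

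**Figure D5:**
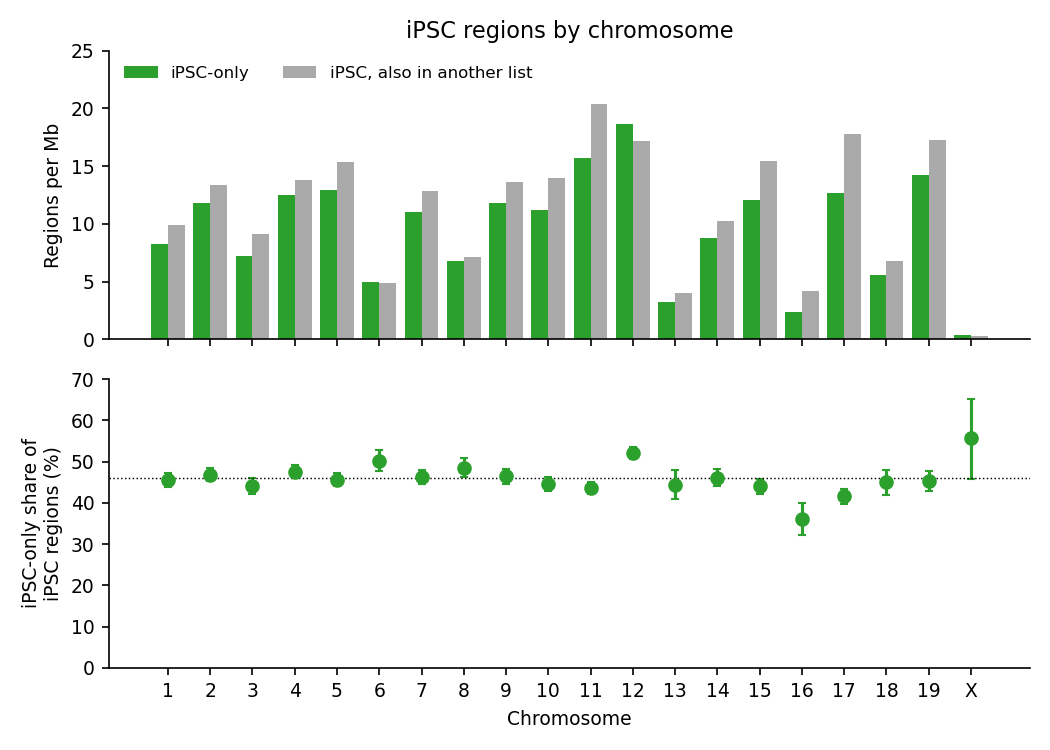
Above, iPSC-only regions (green) and iPSC regions also in another list (grey) per Mb of each chromosome; below, iPSC-only share of the iPSC regions (percent, with exact 95% binomial intervals; the dotted line is the whole list, 46.0%). Chromosome 12 has the highest density of iPSC-only regions (18.7 per Mb) and chromosome 16 the lowest share (36.1%).

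Within chromosomes the iPSC-only regions were unevenly spread. Of 275 blocks of 10 Mb with an iPSC or MEF peak, 53 held as many iPSC-only regions as all the others together, and 32 blocks held at least 200. The fullest was on chromosome 12 from 100000001 to 110000000, with 541 iPSC-only regions among 975 iPSC regions (55.5%), in a block with 402 MEF peaks. The next were chromosome 12 from 80000001 to 90000000 with 386 and chromosome 4 from 130000001 to 140000000 with 371. The last 10 Mb of the chromosomes, up to the last peak, are 7.80% of the sequence spanned and held 13.5% of the iPSC-only regions (3264). The other iPSC regions were there at 14.5% and MEF-only regions at 10.3%.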

How the data were processed

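Captured 5hmC DNA of 8 mouse libraries was sequenced by the authors, who deposited 1 peak list per library, not pooled. The deposited score of a peak, by the convention of MACS, equals the log10 of its p-value times -10; the minimum of 50 would be 1e-05. Per the submitters' processing notes the tools were Bowtie and MACS; for their versions, settings and controls, the sources used here give nothing. The builds named there, hg18 and NCBI36, are human, while the lists hold mouse chromosomes. Peaks passed the last gene of GRCm38 on 10 chromosomes, so that annotation was not used, no gene was assigned and no sequence is printed.

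Groups came from the titles. Regions, gaps and windows were computed in Python 3.11.15 (pandas 2.3.3, numpy 2.4.6, scipy 1.17.1, and matplotlib 3.10.9 for figures). The calls were tested on simulated data and checked with bedtools 2.31.1, which gave 24206 iPSC peaks without overlap: the 24202 regions and 4 peaks in merged regions of other lists. Widths in mixed regions are means per peak, and scores are those of the highest iPSC peak. Intervals are exact Clopper-Pearson and cover counting error along the genome only. They take regions as independent, although the iPSC-only regions were grouped, and they serve as no test. Regions, windows and chains named are the 10 highest-scoring, the 10 fullest windows of 100 kb and the 3 longest chains. The members and these rules were chosen with earlier results of these data known. Alternatives were other overlaps, score minimums, equal numbers of peaks, 500 bp peaks, merging, chromosomes left out and lists left out.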

Additional observations from a re-analysis of the deposited data

How the results depend on the processing

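Depth is unknown, and a region missing from a list may hold 5hmC that was not called, so counts and shares move with list length and score. The iPSC-only share of iPSC regions was 33.5% (7.92% of all regions) when a peak within 1 kb counted as present, 47.7% when an overlap of under 50% of the iPSC peak counted as absent, 48.1% with peaks of 500 bp, and 36.2% (10.1%) with peaks within 1 kb merged. With a score of at least 100 in all lists there were 6618 iPSC-only regions, 52.4% (6.53%), and with that minimum in iPSC alone 3835, 30.5% (1.89%). In the latter setting chromosome 12 held 11.8% of them, and 35.6% of the iPSC regions of chromosome 12 and 20.5% of those of chromosome 16 were iPSC-only. With equal numbers of peaks, applied to the choice of regions too, the share was 54.8% (18.2%), the median score 66.9, the share in chains 51.5%, and the iPSC-only share 60.7% on chromosome 12 and 46.6% on chromosome 16. This setting leaves the iPSC list whole, so the number of iPSC-only regions could only rise with it. The median gaps were then 12910.5 bp to OSNK D5 and 9453.5 bp to OySyNyK D5, and 6.84% and 10.1% were within 1 kb. With peaks of 500 bp the gaps were 7186 and 7047 bp, and 11.1% and 12.1% were within 1 kb. For the regions as reported and D5 lists of equal numbers, an alternative added after seeing the data, the gaps were 14078 and 10220 bp and the shares 6.09% and 9.27%. OySyNyK D5 was the nearer list by both measures in each of these settings, and the cause of the shifts was not tested. Chains of gaps up to 5 kb held 31.9% of the regions and of gaps up to 25 kb 69.5%. Windows of 1 Mb with an iPSC-only region numbered 1943, with at most 121 regions in one. Leaving out each of the 7 other lists gave 24428 to 27467 regions, 46.4% to 52.0% of iPSC regions, 11.1% to 12.7% of all regions and median scores of 66.2 to 67.5; the upper ends are those without OySyNyK D5. Without chromosomes 12, 13, 16, 18 and X the share of all regions was 11.4%, and the gaps, chains and iPSC share (45.6%) stayed within their intervals or within 1.5 times of the reported count; this was added after seeing the data for gaps, chains and windows. Private shares of other lists with equal numbers of peaks were 25.5% in MEF, 8.88% and 9.55% at D1 and D3 of OSNK, and 5.51%, 8.80% and 15.1% over the days of OySyNyK. At a score minimum of 100, MEF had 18.5%, the OSNK days 19.6%, 9.15% and 11.5%, and the OySyNyK days 7.99%, 10.4% and 10.0%. The planned annotation of promoters was not run because no annotation of the lists' assembly was used. No paired analysis was possible because each group has 1 library and no result comes from a test.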

Other observations

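A small set of iPSC-only regions lay far from the peaks of all 7 other lists. It was looked at after its values were seen and is given as values alone. Of the 24202 regions, 3883 were over 10 kb from every peak of the 7 other lists, 489 (2.02%) over 50 kb and 179 (0.740%) over 100 kb. The 489 were narrower and only slightly lower in score. Their median score was 64.2 and their median width 520 bp, against 66.3 and 599 bp for all iPSC-only regions. A score of at least 100 was reached by 14.1% of the 489 and by 15.8% of all. Their highest score was 269. Another iPSC region lay within 10 kb of 131 of the 489, which is 26.8%, against 66.5% of all iPSC-only regions, and 231 had none within 50 kb. Chromosome 4 held 57 of the 489, chromosome 12 held 49 and chromosome 5 held 45, while chromosome 13 held 6 and chromosome 19 held 3. Of all iPSC-only regions these chromosomes held 7.88%, 9.10%, 7.96%, 1.55% and 3.43%. The 49 on chromosome 12 are 10.0% of the 489, near its share of all. Chromosome 18 held 20 of the 489 and 2.01% of all.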
